A study of Mus musculus with 6 samples.

Results

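The genes described here are those of glycolysis and of the cellular response to low oxygen. They were taken from a list of 38 named genes, 16 of them enzymes of glycolysis, and 35 had a probe set carrying their symbol alone among the 19938 genes so represented in the table. Where a gene had several such probe sets, the one with the highest mean over all arrays was used. Gapdh was named only by 25 probe sets that list other genes as well, and no probe set was named for Gpi1 or Eno1, so these 3 enzymes have no value here. The tissue was the yolk sac of mouse embryos at E9.5, and each array was taken as a separate embryo. The mutant group held 3 yolk sacs labelled Tnrc6a (GW182) mutant, homozygous for a gene-trap allele (GW182gt/gt) of a protein through which Argonaute recruits the deadenylation machinery, and the control group held 3 wild-type littermates. The labels name no strain, both genotype labels carry the unexplained word mixed, and nothing states whether the trapped allele still makes any protein. RNA was measured on Mouse Gene 1.0 ST arrays, and every value below is a deposited log2 signal or a difference of such signals. In whole tissue, fewer cells of a type and less RNA per cell cannot be told apart.

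Glycolysis splits glucose into pyruvate in the cytosol, and lactate dehydrogenase turns pyruvate into lactate when mitochondria do not take it up. When oxygen is short, the prolyl hydroxylases that mark HIF alpha subunits for destruction slow down, HIF accumulates, pairs with Arnt and binds short elements with the core ACGTG or GCGTG, raising transcription of glycolytic enzymes, glucose and lactate transporters and genes such as Bnip3, Adm and Egln3. HIF alpha is set mainly through protein stability, which an RNA array does not measure. The early embryo and its yolk sac develop in low oxygen and rely heavily on glucose.

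The libraries did not stand alike, which bears on every value below. For the library labelled mutant 1 the Tnrc6a signal was 7.81, with 5.33 for mutant 2 and 5.20 for mutant 3, against 8.40, 7.62 and 8.29 in wild types 1 to 3. The library labelled mutant 1 thus lay inside the wild-type range, against its label, and all mutant averages include it unless stated. The fitted log2 difference was −1.99 (SE 0.64, limma p = 0.0156, adjusted p = 0.999), and p was 0.2 by exact permutation over the arrays (two-sided), a design whose smallest possible value is 0.1. Wild type 2 carried the decidual and placental hormone mRNA Prl4a1 at 7.13, while the other 5 libraries held 3.51 to 5.14. Prl8a2, of the same family, was high in mutant 2 (9.11) as well as in wild type 2 (7.44). Xist was at 9.63 for the library labelled mutant 1, 3.74 for mutant 2 and 10 for mutant 3, against 9.87, 3.58 and 3.90 in wild types 1 to 3, so both sexes occurred in each genotype. The markers of the visceral endoderm were bright on every array (Afp 12.56 to 12.68, Ttr 12.65 to 12.71), as the labelled tissue would have them. All 6 array medians lay between 5.19 and 5.22, the median standard error of a difference was 0.11 on the log2 scale, and precision is limited by having 3 arrays a group.

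No gene of glycolysis or of the hypoxia response passed the test between the genotypes. Of the 35 genes, 33 passed the filter on dim probe sets (Eno2 and Car9 did not), and limma called 0 of them at an adjusted p under 0.05 (0.0% of all 15252 tested probe sets) and 0 at an unadjusted p under 0.05 (3.53%). The methods' t-test called 0 of the 33 at either threshold, and over all probe sets it put 587 under the unadjusted threshold and 0 under the adjusted one. For 0 of the 33 genes did the values of the genotypes separate (8.55% of all tested probe sets). The mutant mean was the higher one for 24 of 33 genes (52.9%), and the median log2 difference was 0.078 over the genes and 0.0077 over all tested probe sets. The 33 tested genes had adjusted p = 0.999 each in limma.

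**Figure D1:**
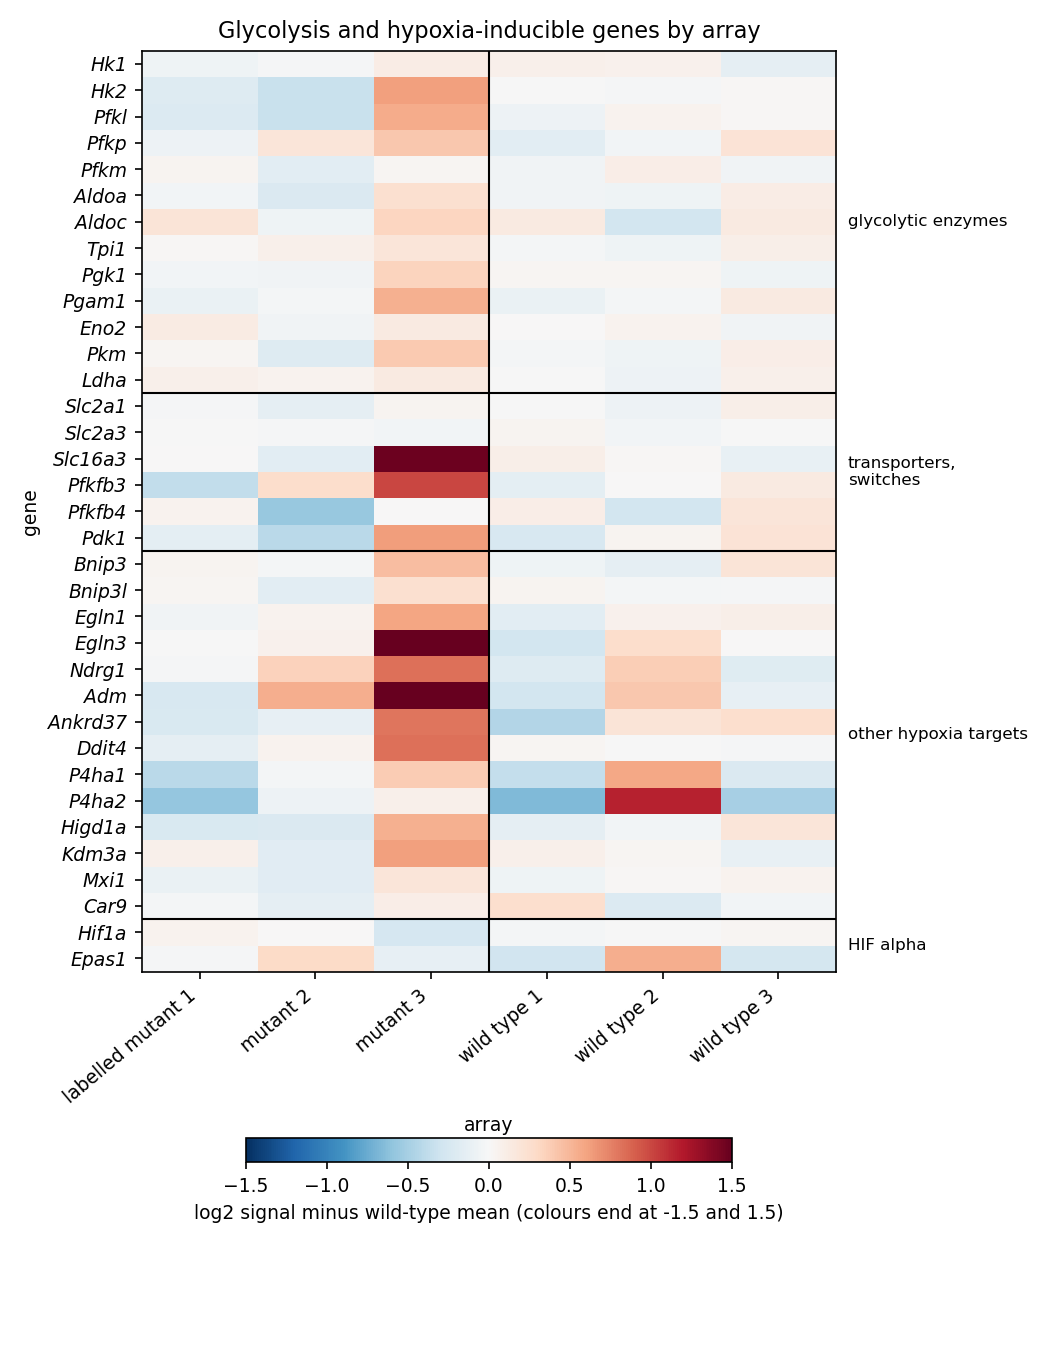
Log2 signal minus the wild-type mean of the same gene, for 35 genes (rows, grouped by role) on 6 arrays (columns, the mutants left of the wild types), in colours that end at −1.5 and 1.5. The column of mutant 3 is red for most rows outside the HIF alpha subunits, with Egln3 at 2.20, Adm at 1.53 and Slc16a3 at 1.47, and wild type 2 is red for P4ha1 and P4ha2.

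Within the mutants, one yolk sac stood apart. Mutant 3 was the highest of the 6 arrays for 25 of the 33 genes, against 25.4% of all tested probe sets. It lay at least 0.5 log2 above the wild-type mean for 14 of 33 genes (3.13% of all tested probe sets) and at least 0.5 below it for none (1.05%). The library labelled mutant 1 lay that far above the wild-type mean for none of the 33 (0.262%), and mutant 2 did so for 1 gene, Adm (1.66%). The glycolytic enzymes had a median shift from the wild-type mean of −0.038 for the library labelled mutant 1, −0.058 for mutant 2 and 0.32 for mutant 3, while wild types 1 to 3 had −0.033, −0.037 and 0.085. For the other hypoxia targets the medians were −0.099, −0.034 and 0.59 in the library labelled mutant 1, mutant 2 and mutant 3, against −0.16, 0.069 and −0.017 in the wild types. This shift belongs to a single array, so it has no replicate and no test. The Tnrc6a signal was 5.33 in mutant 2 and 5.20 in mutant 3, and its part in the shift was not tested.

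Promoters of 6 of the genes, some with wide and some with narrow shifts in mutant 3, are shown because HIF binds a core that can read ACGTG. The genes Ddit4, Ankrd37, Hk2, Egln1 and Pgam1 also held these letters and are not shown. Their shifts in mutant 3 (0.83, 0.80, 0.62, 0.59 and 0.53) exceeded those of Bnip3 (0.46), Pgk1 (0.33) and Ldha (0.14). Pkm (0.39) and P4ha1 (0.38), also with the letters and not shown, exceeded Pgk1 and Ldha. Aldoa (0.24) and Mxi1 (0.18), likewise not shown, exceeded Ldha. In the RefSeq promoter table (GRCm38.p6), 34 of the 38 genes had an entry, and the 250 bases before each annotated start were searched for ACGTG on both strands, where CACGTG, a site of other factors too, counts on both. Of the 51 promoters of these genes 47.1% held the letters, against 20.7% of the promoters of all genes tested on the arrays and 16.6% of all promoters. The mean GC content was 61.3%, 59.7% and 53.2% in these sets. The share was 33.3% for the glycolytic enzymes and 62.5% for the other hypoxia targets, a group listed because HIF is known to induce them. Their promoters had a mean GC content of 59.1% and 65.2%. Some genes have several promoters, and counted by gene the shares were 43.8% and 75.0%, against 24.0% of genes tested on the arrays. Adm, high in mutant 3, had no match in this window, and Ldha, nearly level, had the most matches of the genes searched. The other core, GCGTG, was not searched for, so these shares and matches cover ACGTG alone. The match is a description of letters and not of a bound site. The sequences run 5′ to 3′ on the gene's strand up to the base before its start, with the letters found in capitals.
Slc16a3 (chr11:120948817-120949066, plus strand): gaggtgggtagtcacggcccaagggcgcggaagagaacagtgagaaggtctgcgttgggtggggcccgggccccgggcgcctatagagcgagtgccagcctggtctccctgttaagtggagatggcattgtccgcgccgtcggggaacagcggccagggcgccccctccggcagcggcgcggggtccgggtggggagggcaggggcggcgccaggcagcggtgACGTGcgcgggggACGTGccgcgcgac
Egln3 (chr12:54203875-54204124, minus strand): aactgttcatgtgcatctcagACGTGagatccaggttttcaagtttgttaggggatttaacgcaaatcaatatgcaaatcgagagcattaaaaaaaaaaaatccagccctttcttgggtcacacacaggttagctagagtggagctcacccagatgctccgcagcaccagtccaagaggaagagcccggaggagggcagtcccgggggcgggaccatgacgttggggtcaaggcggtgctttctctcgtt
Pfkfb3, the upstream one of its starts (chr2:11553930-11554179, minus strand): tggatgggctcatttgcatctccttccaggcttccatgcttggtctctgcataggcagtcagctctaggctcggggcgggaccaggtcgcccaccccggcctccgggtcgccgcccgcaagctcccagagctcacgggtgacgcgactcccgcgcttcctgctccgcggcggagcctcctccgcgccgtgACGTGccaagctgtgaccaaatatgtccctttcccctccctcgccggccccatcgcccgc
Bnip3 (chr7:138909507-138909756, minus strand): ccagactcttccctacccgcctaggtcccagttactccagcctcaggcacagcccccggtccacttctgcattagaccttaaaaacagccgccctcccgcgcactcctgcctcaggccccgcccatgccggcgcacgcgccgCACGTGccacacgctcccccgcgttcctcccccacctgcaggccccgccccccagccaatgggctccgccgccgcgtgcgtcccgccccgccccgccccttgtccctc
Pgk1 (chrX:106186850-106187099, plus strand): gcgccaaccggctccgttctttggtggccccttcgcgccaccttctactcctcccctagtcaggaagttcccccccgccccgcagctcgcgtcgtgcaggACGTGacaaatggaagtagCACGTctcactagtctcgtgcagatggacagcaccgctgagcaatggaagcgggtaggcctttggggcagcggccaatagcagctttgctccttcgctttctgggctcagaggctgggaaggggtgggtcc
Ldha (chr7:46845554-46845803, plus strand): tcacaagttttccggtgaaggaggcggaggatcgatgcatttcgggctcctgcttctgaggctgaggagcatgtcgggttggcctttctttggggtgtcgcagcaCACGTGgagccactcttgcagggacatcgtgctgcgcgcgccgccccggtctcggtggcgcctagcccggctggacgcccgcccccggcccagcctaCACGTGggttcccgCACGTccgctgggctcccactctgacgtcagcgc
Slc16a3 holds a pair of matches within 27 bases of its start, and Egln3 a single one 229 bases before it. Ldha, which holds CACGTG at 145 and 48 bases before its start, stood only 0.14 above the wild-type mean in mutant 3, while Slc16a3 stood 1.47 above it.

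The enzymes of glycolysis are taken in the order of the pathway. Hk2, a hexokinase that is induced by HIF, read 7.28, 7.14 and 8.09 in the library labelled mutant 1, mutant 2 and mutant 3, against 7.47, 7.46 and 7.49 in wild types 1 to 3. The wild types lay within 0.033 of each other, mutant 3 stood 0.60 above the next array and the other mutant libraries lay below every wild type. Hk1, the widely expressed hexokinase, differed by 0.011 (SE 0.10) between the genotypes at its brightest probe set. Its other probe set read up to 5.4 lower on the same array and differed by −0.26, so the level of Hk1 is uncertain. At that other probe set mutant 3 read 7.49, inside the wild-type range of 7.40 to 7.56.

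Pfkl, the liver-type subunit of phosphofructokinase, which commits sugar to glycolysis, read 8.65, 8.52 and 9.41 in the mutant libraries, against 8.77, 8.91 and 8.87 in wild type. It repeated the pattern of Hk2, with both groups overlapping. Its platelet-type partner Pfkp read 7.44, 7.69 and 7.92 in the mutant libraries, against 7.36, 7.48 and 7.71 in wild type. The muscle-type subunit Pfkm was the exception among the tested enzymes at the probe sets used. Mutant 3, at 8.47, lay inside its wild-type range of 8.38 to 8.54, and wild type 2 was the highest array.

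Below the split of the sugar, Aldoa, the main aldolase, and Tpi1, the triose-phosphate isomerase, stood 0.24 and 0.18 above the wild-type mean in mutant 3. Pgk1, an X-linked kinase that yields ATP, read 10.99, 10.97 and 11.36 in the mutant libraries, against 11.06, 11.06 and 10.96 in wild type. The 3 probe sets named Pgk1 agreed within 0.02 on every array and were taken as 1 measurement. Pgam1, the phosphoglycerate mutase, read 9.86, 9.92 and 10.49 in the mutant libraries, against 9.85, 9.92 and 10.09 in wild type, and its other probe sets gave differences of 0.091. Pkm, the M-type pyruvate kinase, stood 0.39 above the wild-type mean in mutant 3, and 0.19 below it in mutant 2. Ldha, which makes lactate, was bright and nearly level, at 12, 11.97 and 12.07 in the mutant libraries, against 11.92, 11.85 and 12 in wild type (log2 difference 0.090, SE 0.081). Aldoc, a dim aldolase, ranged over 4.83 to 5.21 in the mutants and 4.61 to 5.03 in wild type. Eno2, the neuronal enolase, was below the filter, at 4.21 to 4.39 in the mutants and 4.20 to 4.31 in wild type.

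The transporters and the enzymes that steer glycolysis differed among themselves. Slc16a3, which carries lactate out of glycolytic cells, read 7.33, 7.17 and 8.79 in the library labelled mutant 1, mutant 2 and mutant 3, against 7.42, 7.35 and 7.22 in wild types 1 to 3. Mutant 3 was 2.77-fold above the wild-type mean, while both other mutants lay inside or just under the wild-type values. Over the groups Slc16a3 averaged 7.77 ± 0.89 in the mutants and 7.33 ± 0.10 in wild type (SD, n = 3 each), a difference of 0.44 (SE 0.38) that became −0.075 without mutant 3. Pfkfb3, which makes the sugar phosphate that activates phosphofructokinase, read 6.01, 6.63 and 7.38 in the mutant libraries, against 6.22, 6.39 and 6.52 in wild type. Mutant 3 was 2.0-fold above the wild-type mean and the library labelled mutant 1 was the lowest array. Pdk1, which keeps pyruvate out of mitochondria by inhibiting pyruvate dehydrogenase, read 7.51, 7.26 and 8.29 in the mutant libraries, against 7.42, 7.70 and 7.86 in wild type. Pfkfb4, an isoenzyme of Pfkfb3, read 7.45, 6.84 and 7.41 in the mutant libraries, against 7.50, 7.12 and 7.59 in wild type, with no rise in mutant 3.

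The glucose importers varied little among all 6 arrays. Slc2a1 read 12.01, 11.90 and 12.07 in the mutant libraries, against 12.03, 11.96 and 12.13 in wild type (log2 difference −0.041, 95% interval −0.25 to 0.16). Slc2a3, the high-affinity importer, read 12.77, 12.77 and 12.74 in the mutant libraries, against 12.82, 12.74 and 12.78 in wild type (log2 difference −0.022, 95% interval −0.19 to 0.15). Both signals were among the brightest of the list, and the highest value of the whole table was 13.7.

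**Figure D2:**
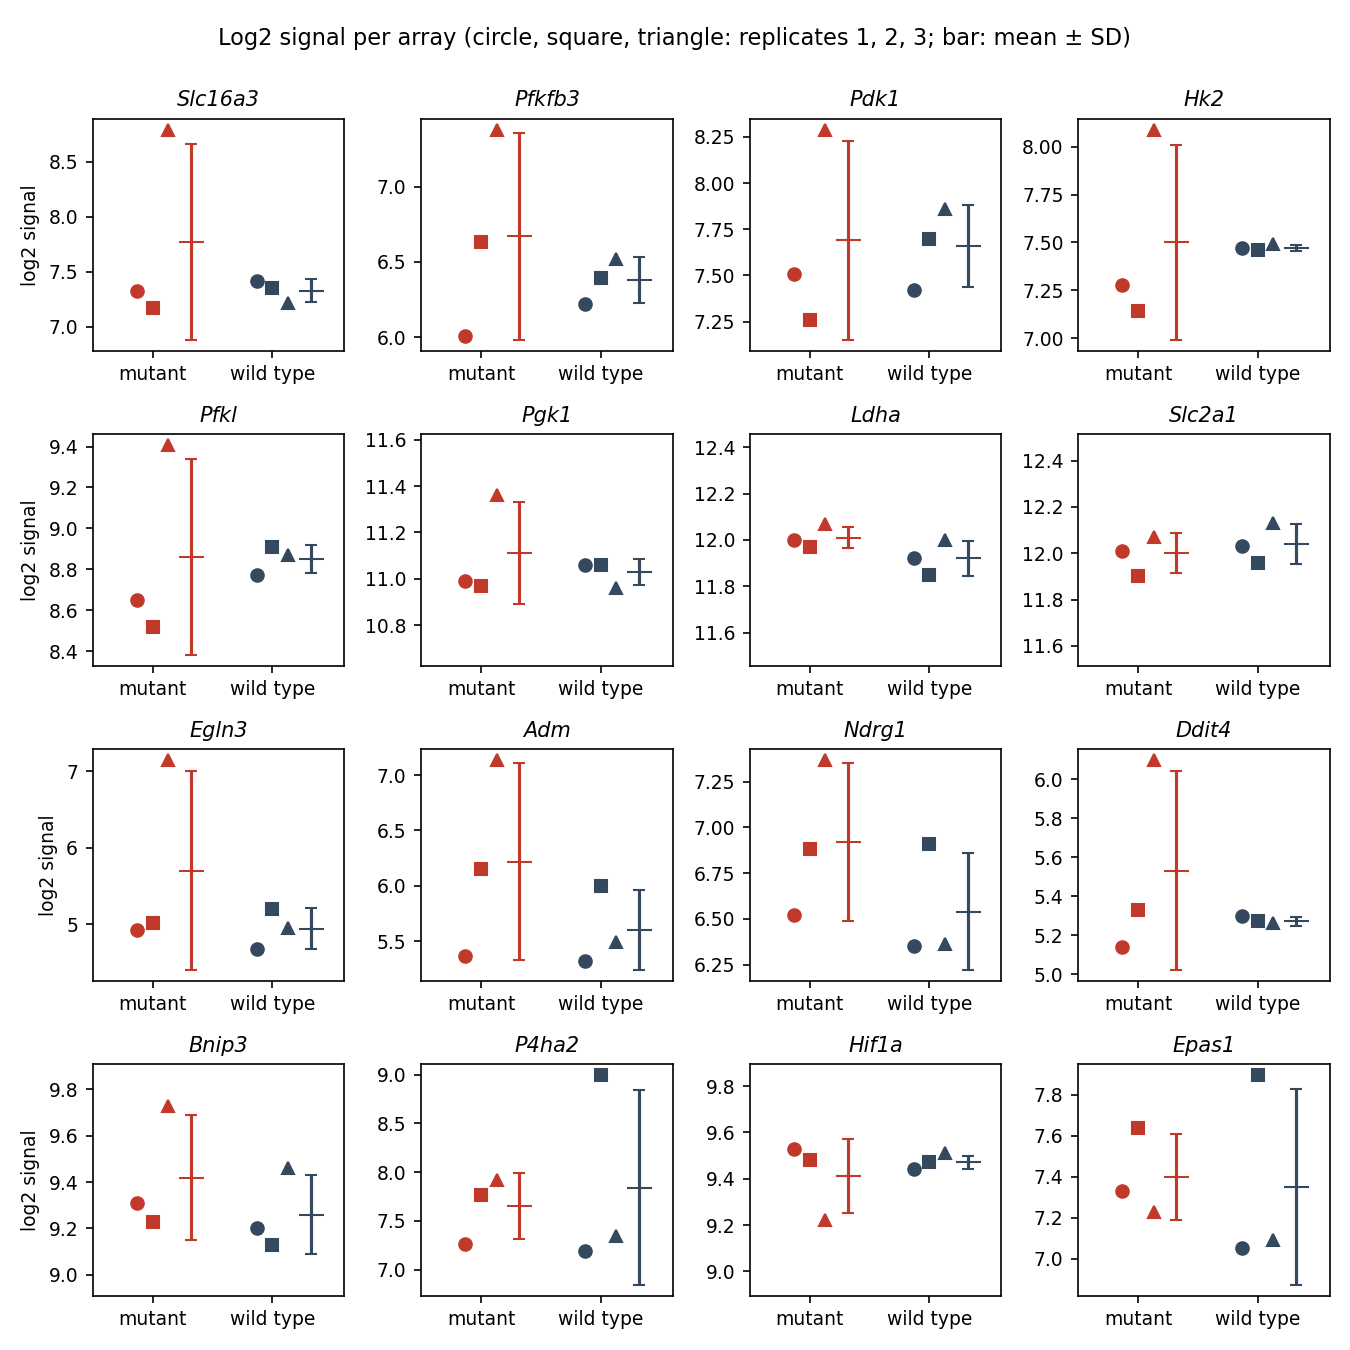
Log2 signal of 16 genes on each array, mutants left and wild types right, with circles, squares and triangles for replicates 1, 2 and 3 and a bar for the mean ± SD of 3 arrays; the vertical axes differ between panels. The red triangle of mutant 3 stands above all other points for Slc16a3, Pfkfb3, Pdk1, Hk2, Pfkl, Pgk1, Ldha, Egln3, Adm, Ndrg1, Ddit4 and Bnip3, and is the lowest point for Hif1a.

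Among the other hypoxia targets the widest gap was that of Egln3, a HIF prolyl hydroxylase that HIF itself induces. Egln3 read 4.93, 5.01 and 7.15 in the library labelled mutant 1, mutant 2 and mutant 3, against 4.67, 5.20 and 4.95 in wild types 1 to 3. Mutant 3 was 4.61-fold above the wild-type mean and 1.94 log2 above the next array, and the other mutants lay inside the wild-type range. By that gap to the next array, Egln3 ranked 1 among the 15252 tested probe sets, and Slc16a3 ranked 5. The genotype difference was 0.75 (SE 0.54) for Egln3 with all arrays and 0.028 without mutant 3. Egln1, the main oxygen-sensing hydroxylase, read 7.09, 7.19 and 7.72 in the mutant libraries, against 6.98, 7.21 and 7.23 in wild type.

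Adm, the precursor of the vasodilator adrenomedullin, read 5.37, 6.15 and 7.14 in the mutant libraries, against 5.32, 6.0 and 5.49 in wild type. Here mutants 2 and 3 lay above every wild type, and wild type 2 was the highest of its group. Ndrg1, a stress-responsive gene of differentiating cells, read 6.52, 6.88 and 7.37 in the mutant libraries, against 6.35, 6.91 and 6.36 in wild type. Adm and Ndrg1 had the lowest p of the hypoxia targets (0.170 and 0.142 in limma, adjusted p = 0.999 for each), with differences of 0.62 (SE 0.41) and 0.38 (SE 0.23).

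Ddit4, an inhibitor of mTOR complex signalling, read 5.14, 5.33 and 6.10 in the mutant libraries, against 5.30, 5.27 and 5.26 in wild type. Its wild types agreed within 0.043, and mutant 3 stood 0.78 above the next array. Ankrd37, an ankyrin repeat gene induced by HIF, read 5.11, 5.23 and 6.15 in the mutant libraries, against 4.91, 5.54 and 5.59 in wild type. Kdm3a, a histone demethylase, read 7.21, 6.96 and 7.74 in the mutant libraries, against 7.20, 7.16 and 7.02 in wild type. The mitochondrial protein gene Higd1a stood 0.53 above the wild-type mean in mutant 3 at its brighter probe set, whereas its dimmer probe set gave 5.53 in mutant 3, inside the wild-type range.

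Bnip3, a receptor for the removal of mitochondria, read 9.31, 9.23 and 9.73 in the mutant libraries, against 9.20, 9.13 and 9.46 in wild type, and its other probe set had the same order at the top, with 8.77 in mutant 3 the highest. Its relative Bnip3l stood 0.24 above the wild-type mean in mutant 3 and 0.16 below it in mutant 2. Mxi1, an antagonist of Myc, stood 0.18 above in mutant 3. Car9, a carbonic anhydrase of the cell surface, stayed below the filter, at 3.55 to 3.79 in the mutants and 3.49 to 3.94 in wild type.

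The collagen prolyl hydroxylases behaved otherwise. P4ha2 read 7.26, 7.76 and 7.92 in the mutant libraries, against 7.19, 9.0 and 7.34 in wild type, and P4ha1 read 8.40, 8.77 and 9.19 in the mutant libraries, against 8.45, 9.38 and 8.59 in wild type. For both enzymes, which modify collagen in the endoplasmic reticulum, wild type 2 was the highest array, as it was for 4 of the 33 genes (12.3% of all tested probe sets). That library was also the highest for Prl4a1 and for 3 of the 8 mesenchymal markers, Pdgfra (9.13), Acta2 (11.44) and Col3a1 (10.57). Mutant 3 was the highest array for 3 of the 8 as well, and mutant 2 for 2. The part of mesenchymal or decidual cells in the P4ha signals of wild type 2 was not tested. Without wild type 2 the difference of P4ha2 turned to 0.39, against −0.19 with all arrays.

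The mRNAs of the HIF alpha subunits were not high in mutant 3. Hif1a read 9.53, 9.48 and 9.22 in the library labelled mutant 1, mutant 2 and mutant 3, against 9.44, 9.47 and 9.51 in wild types 1 to 3, so mutant 3 was the lowest array. Epas1, which encodes the alpha subunit typical of endothelium, read 7.33, 7.64 and 7.23 in the mutant libraries, against 7.05, 7.90 and 7.09 in wild type. Over the genotypes Hif1a differed by −0.065 (SE 0.10) and Epas1 by 0.054 (SE 0.23).

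**Figure D3:**
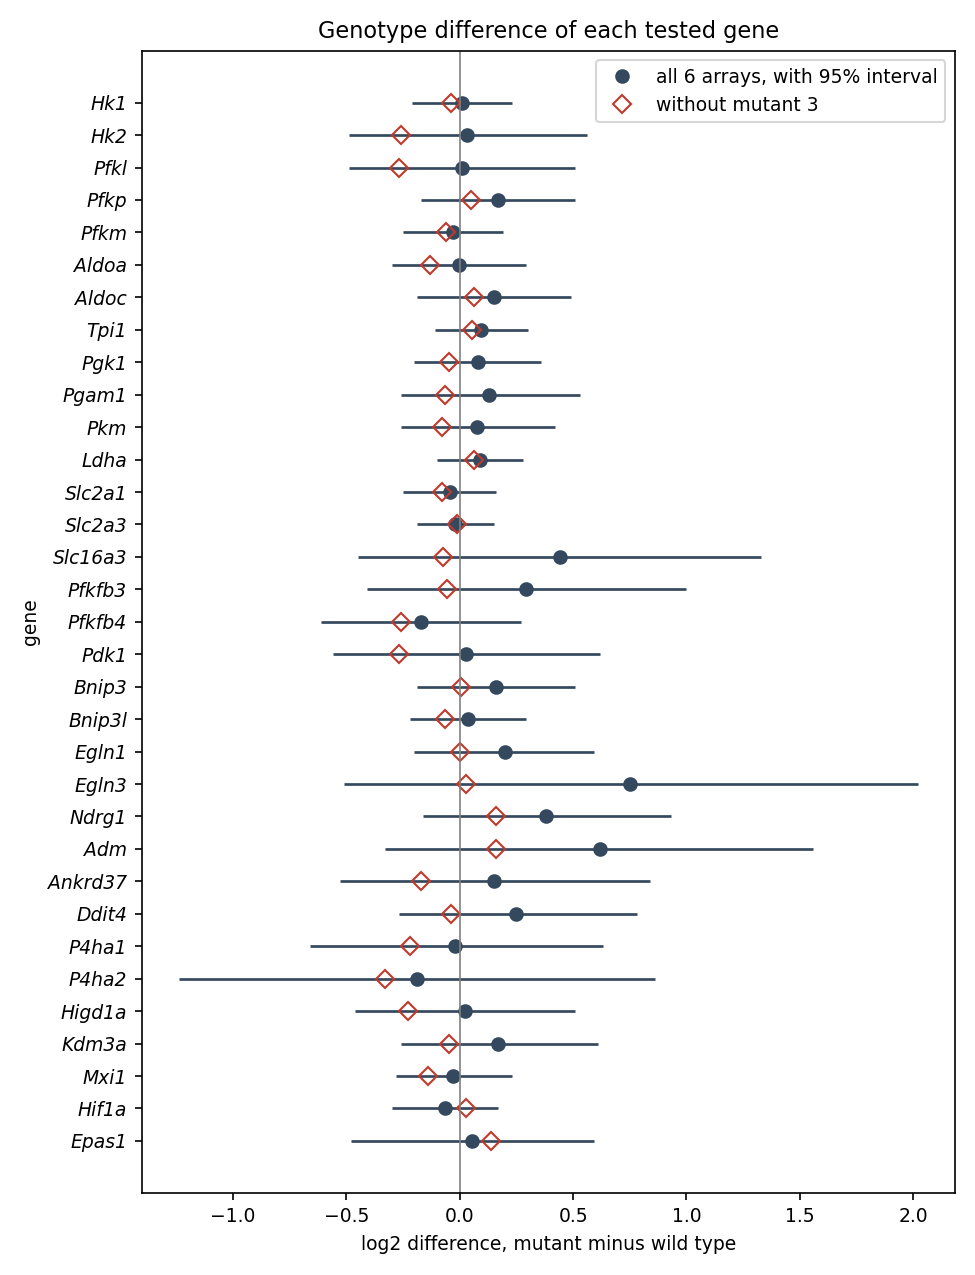
Log2 difference, mutant minus wild type, of the 33 tested genes, with the limma estimate over all 6 arrays and its 95% interval (filled circles and lines) and the estimate without mutant 3 (open diamonds). Every interval includes 0, and for 21 of the 33 genes leaving out mutant 3 moved the estimate more than leaving out any other single array.

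Leaving out mutant 3 changed the picture of the genotypes. With all arrays 24 of 33 genes had the higher mean in the mutants, and without mutant 3 this held for 11. The median difference of the glycolytic enzymes was 0.078 with all arrays and −0.054 without mutant 3, and that of the other hypoxia targets was 0.16 and −0.047. Without mutant 3, Hk2 differed by −0.26 and Pfkl by −0.27, and no other gene of the 33 lay under an unadjusted p of 0.05 in that fit. There 1252 of 15252 probe sets lay under it, 0 passed after adjustment, and the lowest adjusted p of the 33 genes was 0.599 in limma. Without the library labelled mutant 1, Pfkfb3, Ndrg1 and Adm lay under an unadjusted p of 0.05, with differences of 0.63, 0.59 and 1.04, and without wild type 2 Ndrg1 and Epas1 did, with 0.57 and 0.33. None passed after adjustment, and in these fits 671 and 751 of the 15252 probe sets lay under the unadjusted threshold. The library left out held the lowest mutant value of Pfkfb3, Ndrg1 and Adm, or the highest wild-type value of Ndrg1 and Epas1.

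Other genes of the pathway, from lists chosen for function, showed mutant 3 high for some targets and not for others. Of 27 tested further HIF-responsive genes, mutant 3 was the highest array for 10 (37.0%, against 25.4% of all tested probe sets). The median shift in mutant 3 was 0.088, against 0.023 over all tested probe sets. Ccng2, an unusual cyclin induced by hypoxia, read 5.84, 5.80 and 6.98 in the mutant libraries, against 5.69, 6.03 and 5.71 in wild type. Fam162a, a mitochondrial protein gene, read 8.26, 8.31 and 9.14 in the mutant libraries, against 8.26, 8.32 and 8.37 in wild type. Vegfa, the endothelial growth factor, read 8.39, 8.40 and 8.62 in the mutant libraries, against 8.17, 8.34 and 8.42 in wild type. Lox, which cross-links collagen, read 5.59, 6.39 and 5.43 in the mutant libraries, against 5.67, 6.21 and 5.97 in wild type, and so was lowest in mutant 3. These 4 were picked after their values were seen. The lowest p of that list belonged to the glycogen synthase gene Gys1 (difference 0.35, SE 0.12) and to Rora, a nuclear receptor (0.23, SE 0.11), both with adjusted p = 0.999 in limma. At an unadjusted p under 0.05 there were 1 higher gene of the 27 (Gys1, against 2.32% of all tested probe sets) and 0 lower ones (1.21%). The genotypes separated for 1 of the 27, Kdm4b, a histone demethylase gene, higher in the mutants (5.24%).

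The partners and regulators of HIF had a median difference of 0.031 over 16 tested genes. Of these, 0 lay under an unadjusted p of 0.05 in limma (3.53% of all tested probe sets). The genotypes separated for 1 of the 16, Crebbp, higher in the mutants (5.24%). Lowest in p were Crebbp, a coactivator, which differed by 0.16 (SE 0.085), and Hif1an, whose product blocks coactivator binding to HIF, at 0.24 (SE 0.13), both with adjusted p = 0.999 in limma. Arnt, the constant HIF partner, read 8.39, 8.44 and 8.46 in the mutant libraries, against 8.40, 8.42 and 8.33 in wild type. The other genes of glycolysis and pyruvate use had a median difference of −0.054 over 17 tested genes, with 0 higher (2.32% of all tested probe sets) and 1 lower (1.21%) at an unadjusted p under 0.05. The genotypes separated for 2 of the 17, Pdhb, a subunit gene of pyruvate dehydrogenase, and Minpp1, an inositol phosphate phosphatase gene, both lower in the mutants (3.31%). The gene under the threshold was Mpc1, a subunit of the mitochondrial pyruvate carrier, at −0.44 (SE 0.18), and Bpgm, the red-cell bisphosphoglycerate mutase, followed at −0.38 (SE 0.17). Both had adjusted p = 0.999 in limma. In mutant 3 the pyruvate kinase gene Pklr stood 0.22 and the glucose transporter gene Slc2a2 0.33 below the wild-type mean, while Pdk3, a kinase of pyruvate dehydrogenase, stood 0.51 above it; these 3 were picked after their values were seen.

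Markers of some cell types also shifted in mutant 3, and those of red cells shifted most in mutant 2. The 8 endothelial markers had a median shift of 0.11, 0.26 and 0.49 in the library labelled mutant 1, mutant 2 and mutant 3. In wild types 1 to 3 it was −0.12, 0.20 and −0.12. Mutant 3 was the highest array for 7 of the 8 (25.4% of all tested probe sets). The genotypes separated for 4 of the 8, all higher in the mutants (5.24% of all tested probe sets). Their summed linear signal was 2139 to 2753 in the mutants and 1816 to 2228 in wild type. The 8 mesenchymal markers had medians of −0.093, 0.26 and 0.37 in the mutant libraries, against −0.18, 0.36 and −0.19 in wild type, and summed to 5873 to 7569 in the mutants and 5181 to 8639 in wild type. Mutant 3 was the highest array for 3 of these 8 markers (25.4% of all tested probe sets). The smooth-muscle marker Tagln read 8.59 in mutant 3 and 8.44 in wild type 2. The collagen genes Col1a1 and Col3a1 went the other way, at 10.58 and 9.93 in mutant 3, against 11.38 and 10.57 in wild type 2. The listed genes differed in how they read in wild type 2. Adm (6.0), Ndrg1 (6.91), Egln3 (5.20), P4ha1 (9.38), P4ha2 (9.0), Pfkl (8.91), Pfkm (8.54) and Epas1 (7.90) had their highest wild-type value there. Each other of the 33 tested genes had its highest wild-type value in wild type 1 or 3, among them Bnip3, Egln1 and Kdm3a. In wild type 2, Slc16a3 (7.35) and Ddit4 (5.27) lay between the other wild types. The wild types of Ddit4 lay within 0.043 of each other and those of Slc16a3 within 0.20. The 10 markers of visceral endoderm had a median shift of −0.11 in mutant 3, the lowest of the 6 arrays, and summed to 38938 to 45847 in the mutants and 41233 to 41972 in wild type. The 7 measured red-cell markers were lowest in mutant 2 for 7 of 7, with a median shift of −0.59 there and −0.077 in mutant 3. They separated by genotype for 4 of 7, all lower in the mutants (3.31%), and summed to 17277 to 22650 in the mutants and 23605 to 24429 in wild type. The 6 tested macrophage markers had a median shift of −0.20 in mutant 3, the lowest of the 6 arrays, and mutant 3 was the lowest array for 1 of them. The part of cell composition in the hypoxia genes was not tested beyond these values.

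**Figure D4:**
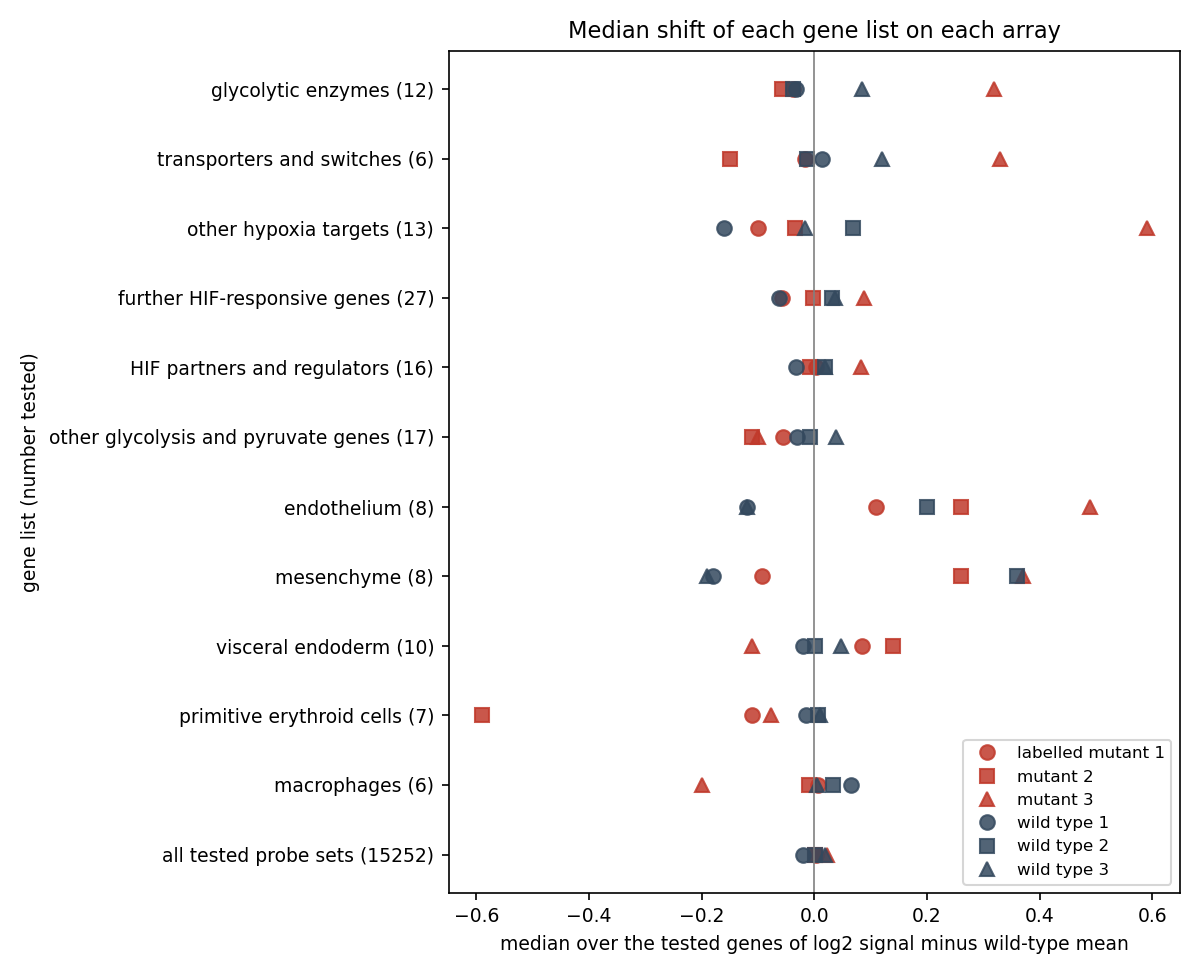
Median over the tested genes of each list of the log2 signal minus the wild-type mean, one point per array (red for the mutants, dark for the wild types; circle, square and triangle for replicates 1, 2 and 3). Mutant 3 lies at 0.59 for the other hypoxia targets and 0.32 for the glycolytic enzymes, away from the other 5 arrays, whereas for mesenchyme it lies beside wild type 2 (0.37 and 0.36).

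The microRNA gene Mir210, whose product is the microRNA best known for induction by HIF, was added after its values were seen, since Tnrc6a acts in microRNA silencing. The mature strand is shown with its seed (bases 2 to 8) in capitals, from chr7:141221407-141221428, minus strand, GRCm38.p6.
mmu-miR-210-3p: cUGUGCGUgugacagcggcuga
The probe set of the Mir210 gene read 6.55, 6.72 and 6.69 in the library labelled mutant 1, mutant 2 and mutant 3, against 6.77, 6.72 and 6.80 in wild types 1 to 3. Mutant 3 was not high here, and the array reports the gene's transcript and not the mature strand.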

How the data were processed

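Total RNA of 6 mouse yolk sacs was hybridised to Affymetrix Mouse Gene 1.0 ST arrays, per the labels' protocols and the series' design text. The deposited table holds the authors' processed log2 signals of 35557 probe sets. MAS5 is the only tool in the submitters' processing notes, and the probe summary, background step and scaling between arrays were not given in the sources used here. Their log2 scale was inferred from the deposited values (0.657 to 13.7), which were used without further normalization, so an effect of the authors' normalization on differences between arrays is unknown. Groups came from the sample titles, and arrays were taken as separate embryos.

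Probe sets were named from the platform annotation: 21789 had 1 symbol, 1621 several and 12147 none here, and no symbol needed an update by Entrez identifier. Single-symbol probe sets whose mean over the arrays reached their 30th percentile (4.34) numbered 15252 and were tested with limma 3.58.1 in R 4.3.3 (lmFit, eBayes, mutant minus wild type, 4 residual and 3.61 prior degrees of freedom), with Benjamini-Hochberg adjustment over all of them and a threshold of 0.05. The code was tested on simulated data first. Median shifts of gene lists and values of single arrays have no test. The genes, lists and rules were chosen with earlier results of these data known: every listed gene is accounted for, and in each further pathway list the 2 lowest p are named.

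Alternatives were quantile normalization, other filters on dim probe sets, an intensity trend with robust variances, the methods' t-test, array weights, a replicate block, the Xist level as covariate, averaging the probe sets of a gene, leaving out each array, and dropping the library labelled mutant 1 and wild type 2 at once. Nothing states that arrays of a group came from separate litters, so p-values measure the spread between these samples.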

Additional observations from a re-analysis of the deposited data

How the results depend on the processing

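None of the listed genes tested had an adjusted call under any of the 16 alternatives; the filter at the 50th percentile left 29 of the 33, without Aldoc, Egln3, Ankrd37 and Ddit4. Over all probe sets 1 adjusted call, that of Tnrc6a, appeared (adjusted p = 0.00245, limma) when the library labelled mutant 1 and wild type 2 were both dropped, which removes the highest mutant and the lowest wild-type value of that gene. The count of probe sets at an unadjusted p under 0.05 was 538 and became 1014 with array weights, 1124 without those 2 libraries together, and 371 to 1252 when 1 array was left out (1252 without mutant 3). For the listed genes that count was 0 and became 0 to 3 without 1 array. Without both libraries it was 5 of 33 (Pfkfb3, Ndrg1, Adm, P4ha1 and P4ha2), beside 1124 of all 15252 probe sets. The dropped libraries held the lowest mutant value of these 5 genes and the highest wild-type value of all but Pfkfb3. Dropping them thus widens these differences by construction. The median difference of the glycolytic enzymes, 0.078, became −0.0089 with array weights and ran from −0.054 without mutant 3 to 0.15 without mutant 2. That of the other hypoxia targets, 0.16, became 0.035 with array weights and 0.44 without both libraries, and ran from −0.047 without mutant 3 to 0.27 without mutant 2. Under the other alternatives these medians moved by less than the spread of the wild types (0.069 and 0.11). The causes of these moves were not tested. The sign of the difference turned for 23 of 33 genes when some array was left out. The replicate numbers gave no clear pairing of the arrays. Same-numbered deviations correlated at 0.462, 0.138 and −0.113, and 3 of 6 arrays correlated best with their own number. With 3 arrays a group, these values cannot settle whether the arrays were paired. With the replicate block 702 probe sets lay under an unadjusted 0.05, the listed genes 0 times, and the medians stayed at 0.078 and 0.16. Eno2 and Car9 lay under the filter on dim probe sets.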

Other observations

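Outside the listed genes, the tested probe sets were ordered by how far mutant 3 stood above the next array, and the top 10 are named after their values were seen. Egln3 and Slc16a3 were in it, and the others were Vldlr, Tmem255a, Tbx4, Cav1, Ankrd44, Sparcl1, Car1 and Sfrp1. Vldlr, a lipoprotein receptor, read 4.38, 4.64 and 6.77 in the library labelled mutant 1, mutant 2 and mutant 3, against 4.12, 5.08 and 4.44 in wild types 1 to 3. Cav1, the main protein of caveolae, read 4.58, 5.09 and 6.41 in the mutant libraries, against 4.49, 4.83 and 4.69 in wild type. For Tbx4, a transcription factor of the allantois and hindlimb, the values were 4.30, 3.96 and 7.39 in the mutant libraries, against 4.10, 5.99 and 4.23 in wild type. Sfrp1, a secreted Wnt inhibitor, read 4.38, 4.42 and 7.75 in the mutant libraries, against 4.23, 6.53 and 4.40 in wild type. Wild type 2 was the second highest array for Egln3, Vldlr, Tmem255a, Tbx4, Sparcl1 and Sfrp1, and not for Slc16a3, Cav1, Ankrd44 or Car1. A single array carries all of these values, and no test was made of them.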
